A study of Mus musculus with 12 samples.

Results

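The genes described here are 10 components and feedback regulators of the NF-kappa B pathway in mouse back skin, out of 18505 genes with a value in the deposited expression table. They were taken by symbol: the subunit genes Nfkb1, Nfkb2, Rel and Relb, the inhibitor genes Nfkbia and Nfkbie, the nuclear IkappaB family genes Nfkbiz and Bcl3, and the ubiquitin pathway genes Tnfaip3 and Birc3. All 10 were in the table, and all 10 passed the filter on low values (a mean of 0.1 FPKM). FPKM is a read number divided by the length of the gene model and by the counted reads of the library. RNA-seq was done on 12 skin samples of wild-type BALB/c mice taken on day 10, with 4 samples in each of 3 groups. Per the study's methods, the animals were young males whose backs had been shaved. The control group had petroleum jelly on the back. The IMQ + NS group had imiquimod (IMQ) cream once a day, a ligand of Toll-like receptor 7 that produces psoriasis-like lesions, each time followed by a saline (NS) dressing. The IMQ + BZLF group had the same cream followed by a dressing with Banzhilian formula (BZLF), a mixture of botanical drugs. Gauze and film lay over both dressings and are not described for the control group, so imiquimod and the dressing cannot be told apart in comparisons with control skin. The dose of BZLF in the sequenced samples is not given in the sources used here.

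NF-kappa B factors are dimers of Rel family proteins. In resting cells they are held in the cytoplasm by IkappaB proteins, and a kinase complex that is switched on by receptors for interleukin-1, tumor necrosis factor, interleukin-17 and microbial products marks those inhibitors for destruction. The freed dimers enter the nucleus and bind kappa B sites in DNA. Among the genes that they turn on are their own inhibitors and several of their own subunits, so the transcripts form feedback loops. In keratinocytes, Nfkbiz is a known target of interleukin-17 and is needed for the induction of several antimicrobial genes. Skin is a mixture of cell types, and in bulk samples fewer cells of a type and less RNA per cell cannot be told apart.

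The promoters are shown first because kappa B sites link these genes to their own products. RefSeq (assembly GRCm38.p6) gave a window of 250 bases before the start for 7 of the 10 genes, in 10 windows. No window was used for Nfkb1, Relb and Nfkbiz. The kappa B consensus was searched on both strands as GGGRNNYYCC, where R is A or G, Y is C or T and N is any base. The consensus was present in 7 of the 10 windows and in 5 of the 7 genes: Nfkb2, Rel, Nfkbia, Nfkbie and Tnfaip3. It was present in 7.25% of all 32851 windows, and in 10.63% of the 12074 tested genes that had a window. No match was found in the windows of Bcl3 and Birc3. A match of letters is a description and not a measured binding site. The windows of both classical inhibitors, Nfkbia on the minus strand of chr12:55492648-55492897 and Nfkbie on the plus strand of chr17:45555450-45555699, each held a match at 1 place. They are written 5′ to 3′ in the direction of the gene, with the match in capitals.
Nfkbia: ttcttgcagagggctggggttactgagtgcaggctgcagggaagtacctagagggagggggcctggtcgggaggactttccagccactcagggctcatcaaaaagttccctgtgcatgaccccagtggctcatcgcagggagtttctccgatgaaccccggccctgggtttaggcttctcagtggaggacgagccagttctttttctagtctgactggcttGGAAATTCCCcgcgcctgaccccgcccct
Nfkbie: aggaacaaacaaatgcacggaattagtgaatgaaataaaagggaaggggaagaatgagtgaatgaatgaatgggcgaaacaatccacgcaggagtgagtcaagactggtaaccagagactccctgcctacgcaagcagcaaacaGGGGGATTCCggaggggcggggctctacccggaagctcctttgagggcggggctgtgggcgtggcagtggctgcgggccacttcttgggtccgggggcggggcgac
The match lay 29 to 20 bases before the start of Nfkbia and 106 to 97 bases before the start of Nfkbie. For Rel, Nfkb2 and Tnfaip3, stretches of 30 bases around a match are given in the same way. All 250 bases of the first Nfkb2 window and 234 of the third lie within GENCODE exons, so these matches are in sequence annotated as transcribed. The Tnfaip3 window with matches has 110 bases in exons, and the window of Rel has 1. The stretch of Rel is on the minus strand of chr11:23771042-23771071. Those of Nfkb2 are on the plus strand of chr19:46304688-46304717 (first window), where matches on both strands overlap, and of chr19:46305695-46305724 (the third of its 3 windows). That of Tnfaip3 is on the minus strand of chr10:19015403-19015432.
Rel: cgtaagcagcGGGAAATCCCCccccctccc
Nfkb2: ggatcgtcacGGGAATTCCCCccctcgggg
Nfkb2, the third window: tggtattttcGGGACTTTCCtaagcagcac
Tnfaip3: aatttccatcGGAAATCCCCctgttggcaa
The stretch of Rel holds overlapping matches that begin 92 and 91 bases before the start. The Tnfaip3 match ends 3 bases before the start. Other matches are not printed. They lie 125 to 116 bases before the start in the same Tnfaip3 window, 11 to 2 in the first window of Nfkb2 and 236 to 227 in its second.

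The values rest on 38258231 to 40967094 counted reads per sample, as recovered from the spacing of the FPKM values. The 10 genes held 242 to 4880 reads per sample, so counting alone gives a CV of 6.43% at the lowest and 1.43% at the highest. The spread between replicates was mostly wider, with SDs of 4.4% to 33.1% of the mean. Some libraries stood apart. Controls 3 and 4 had 11 of 12 immediate early genes above controls 1 and 2, with a median ratio of 2.31; this list was chosen after the values were seen. Control 2 and IMQ + BZLF 2 held 6 seminal vesicle transcripts that summed to 39.1 and 38.8 FPKM, against at most 0.0248 FPKM in any IMQ + NS sample. The labels do not say whether the samples came from separate mice, and p-values measure the spread between these samples.

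The levels of the 10 genes spanned about the range from 2 to 80 FPKM. Nfkbia, which encodes IkappaB alpha, the main cytoplasmic inhibitor, was the highest of the 10 in every group, with 59.5 ± 19.7 FPKM in control samples, 47.8 ± 6.6 after IMQ + NS and 32.6 ± 2.78 after IMQ + BZLF (mean ± SD, n = 4). Nfkb1, which encodes the p105 precursor of the p50 subunit, came next, followed by Bcl3, and the ranges over samples did not overlap between neighbours in these steps. Rel was the lowest in every group by FPKM. Below Bcl3, the ranges of most neighbours in the order overlapped, and 6 consecutive steps from Bcl3 to Nfkb2 could not be separated in control skin. The scale of these levels depends on the gene model. The lengths recovered from the table were 2.858 times the longest GENCODE transcript for Nfkb2, 1.884 times for Relb and 1.514 times for Birc3, and 0.771 times for Tnfaip3. Per kilobase of the longest transcript, Nfkb2 rose from rank 9 to rank 3 in control skin, at 11.96, and Nfkbia and Nfkb1 kept the highest ranks. The fold between groups in FPKM does not depend on this length.

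**Figure D1:**
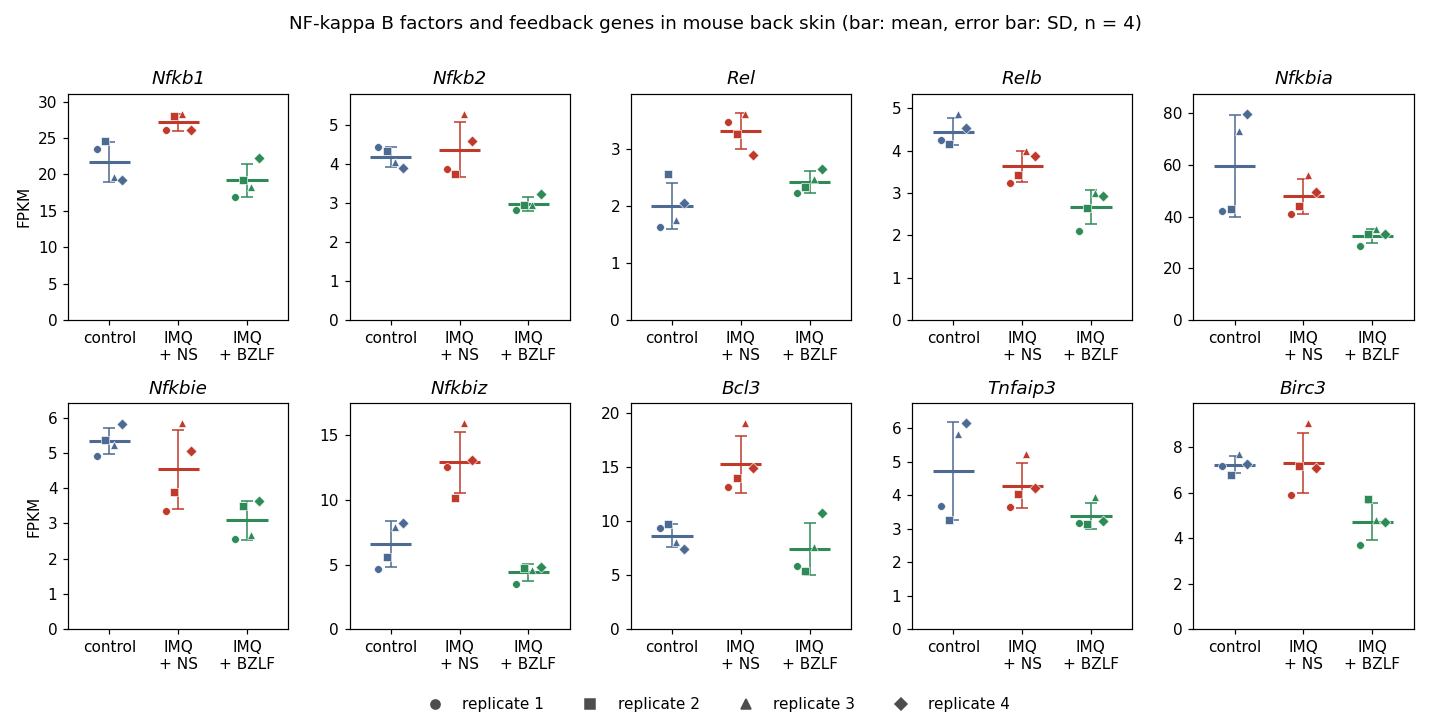
FPKM of the 10 genes in each of the 12 skin samples (linear axes from 0); symbols mark the replicate number, horizontal bars the mean and error bars the SD of 4 samples. Nfkbiz and Bcl3 are highest in all 4 IMQ + NS samples, and Nfkbia, Nfkbiz and Tnfaip3 split into 2 lower and 2 higher control samples.

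The first comparison asks how the genes stood in imiquimod lesions against control skin. Of the 10 genes, 4 were higher in IMQ + NS and 1 was lower at an adjusted p below 0.05 (limma on log2(FPKM + 0.1), adjusted over 15288 genes). Over all genes tested, 29.0% were called higher and 27.1% lower, so the members' share was close to that of the table for higher genes and below it for lower ones. With library sums made equal, 3161 genes of the table were called higher and 4999 lower, in place of 4427 and 4142. None of the 10 was called at more than 2-fold, which 11.4% of all genes were in the higher and 11.0% in the lower direction. The median log2 fold change of the 10 was 0.02, against 0.05 over all genes tested. The nuclear IkappaB family genes Nfkbiz and Bcl3 and the subunit genes Rel and Nfkb1 rose, the subunit gene Relb fell, and Nfkb2, both classical inhibitors and both ubiquitin pathway genes did not pass the test.

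Nfkbiz encodes IkappaB zeta, a nuclear protein that works with p50 on a subset of promoters (chromosome 16, 55811375 to 55838899, minus strand, GENCODE M21 on GRCm38). It was at 4.65, 5.56, 7.92 and 8.21 FPKM in control samples 1 to 4 and at 12.5, 10.2, 15.9 and 13.1 FPKM in IMQ + NS. The groups did not overlap, and 4 of the 10 genes were higher without overlap, against 23.7% of all genes tested, and 1 lower, against 25.7%. The log2 fold change was 0.98 ± 0.21 (SE), with an adjusted p of 0.00390 in limma. Bcl3, whose product also acts in the nucleus with p50 or p52 dimers (chromosome 7, 19808462 to 19822770, minus strand), was at 9.40, 9.77, 8.04 and 7.45 FPKM in control and at 13.1, 14.0, 19.0 and 14.9 FPKM in IMQ + NS. Every lesion sample was above every control sample, and the log2 fold change was 0.80 ± 0.14 (adjusted p = 0.00136, limma). Both calls held in each of the 22 alternative settings tried. The size for Nfkbiz turned on the controls. Its log2 fold change was 1.31 without controls 3 and 4 (adjusted p = 0.00279, limma). Without controls 1 and 2 it was 0.65 (adjusted p = 0.0099, limma).

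Among the subunits, Rel, which encodes c-Rel, a subunit best known in lymphoid and myeloid cells (chromosome 11, 23736847 to 23770970, minus strand), was at 1.64, 2.56, 1.75 and 2.06 FPKM in control and at 3.49, 3.28, 3.62 and 2.91 FPKM in IMQ + NS. It rose by 0.72 ± 0.15 on the log2 scale without overlap (adjusted p = 0.00438, limma), also in all 22 alternatives. Nfkb1 (chromosome 3, 135584655 to 135691547, minus strand) was at 23.5, 24.6, 19.6 and 19.2 FPKM in control and at 26.1, 28.1, 28.3 and 26.1 FPKM in IMQ + NS. The groups did not overlap, and the log2 fold change was 0.33 ± 0.10 (adjusted p = 0.0199, limma). Without controls 3 and 4, which were its lowest samples, it was 0.17 with an adjusted p of 0.153 in limma. The call was lost in 6 of 22 alternatives: this one, equal sums (0.19, adjusted p = 0.132), and without control 3 (0.0577), control 4 (0.0559), IMQ + NS 2 (0.0527) or IMQ + NS 3 (0.0533). Relb, the subunit of the non-canonical branch that pairs with p52 (chromosome 7, 19606217 to 19629438, minus strand), went the other way, from 4.25, 4.16, 4.86 and 4.53 FPKM to 3.23, 3.42, 3.99 and 3.88 FPKM. The fall of 0.29 ± 0.11 on the log2 scale had an adjusted p of 0.0469 in limma, just under the threshold, and was lost in 10 of 22 alternatives, among them the omission of any of control 1, 3 or 4 or of IMQ + NS 1, 2 or 4. Nfkb2, which encodes the p100 precursor of p52 (chromosome 19, 46304320 to 46312385, plus strand), was at 4.44, 4.35, 4.06 and 3.89 FPKM in control and at 3.87, 3.75, 5.28 and 4.59 FPKM in IMQ + NS. The groups overlapped, with a log2 fold change of 0.05 ± 0.13 and a 95% interval from -0.24 to 0.34.

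The classical inhibitors and the ubiquitin pathway genes did not pass the test between IMQ + NS and control. Nfkbia (chromosome 12, 55489410 to 55492647, minus strand) was at 42.3, 43.0, 73.3 and 79.6 FPKM in control and at 41.2, 44.3, 56.2 and 49.6 FPKM in IMQ + NS. The lesion samples lay between the lower and the higher control samples, except IMQ + NS 1, which was under all controls (log2 fold change -0.27 ± 0.22, adjusted p = 0.338 in limma). Nfkbie, which encodes IkappaB epsilon, an inhibitor with slower kinetics (chromosome 17, 45555703 to 45563169, plus strand), was at 4.91, 5.37, 5.23 and 5.81 FPKM in control and at 3.35, 3.90, 5.83 and 5.05 FPKM in IMQ + NS. Its IMQ + NS samples were spread widely and overlapped the controls (-0.26 ± 0.17, adjusted p = 0.222, limma). Tnfaip3, the gene for A20, which removes ubiquitin chains from signalling adaptors (chromosome 10, 19000910 to 19015657, minus strand), was at 3.67, 3.27, 5.83 and 6.14 FPKM in control and at 3.65, 4.04, 5.23 and 4.21 FPKM in IMQ + NS. Birc3, the gene for the ubiquitin ligase cIAP2 (chromosome 9, 7848699 to 7873186, minus strand), was at 7.20, 6.78, 7.70 and 7.28 FPKM in control and at 5.89, 7.19, 9.05 and 7.09 FPKM in IMQ + NS. The 95% intervals of the log2 fold change ran from -0.60 to 0.41 for Tnfaip3 and from -0.30 to 0.29 for Birc3. Changes within these intervals were not excluded by these samples.

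Controls 3 and 4 differed from controls 1 and 2 in several of the 10 genes, by amounts as large as the differences between groups. Tnfaip3, Nfkbia and Nfkbiz were 1.726, 1.794 and 1.58 times as high in controls 3 and 4 on average, with both samples above both others. Relb and Birc3 were also above, at 1.117 and 1.072 times. Nfkb1, Bcl3 and Nfkb2 were below, at 0.807, 0.808 and 0.905 times, and Rel and Nfkbie were mixed. Over all genes tested, 15.2% were above in both and 34.2% below in both. Fos, an immediate early transcription factor gene that many stimuli switch on within minutes, moved with this split: it was at 97.7 and 107 FPKM in controls 1 and 2 and at 293 and 314 FPKM in controls 3 and 4, and at no more than 14.6 FPKM in any lesion sample. Zfp36, which encodes an mRNA decay factor of the same early response, was 2.328 times as high in controls 3 and 4. The part of this early response in the control levels of Nfkbia, Tnfaip3 and Nfkbiz was not tested. Against controls 1 and 2 alone, IMQ + NS gave a log2 fold change of 0.16 for Nfkbia (adjusted p = 0.393, limma) and 0.29 for Tnfaip3 (adjusted p = 0.218, limma). Against controls 3 and 4 alone, it gave -0.69 for Nfkbia (adjusted p = 0.00244, limma) and -0.49 for Tnfaip3 (adjusted p = 0.0208, limma). The direction of both genes in lesions therefore depended on which control samples were used. These 2 alternatives were chosen after the values were seen.

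**Figure D2:**
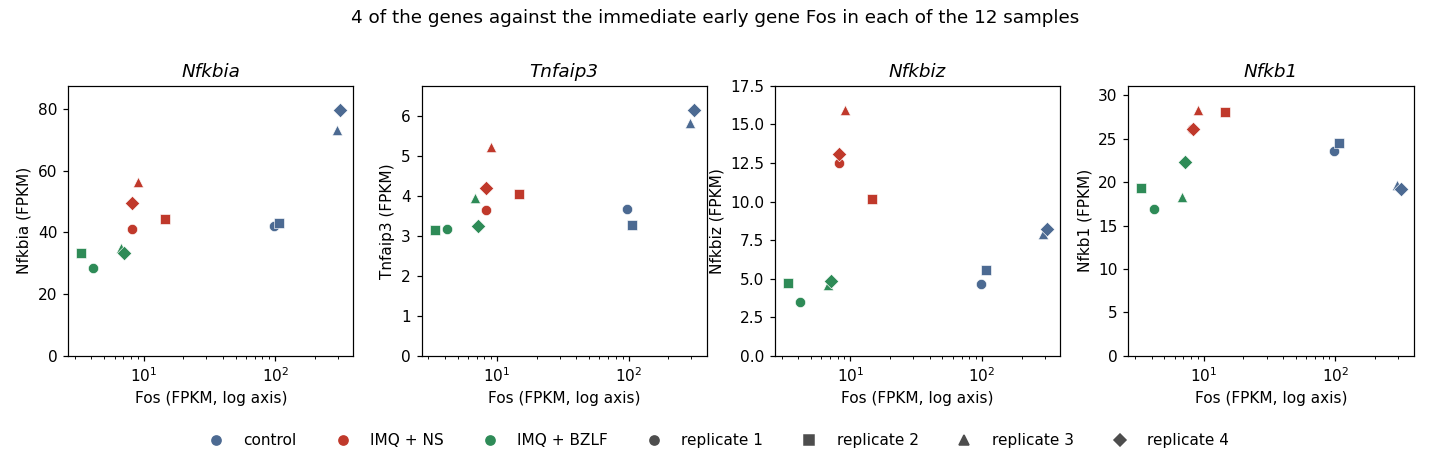
FPKM of Nfkbia, Tnfaip3, Nfkbiz and Nfkb1 (linear axes from 0) against FPKM of Fos (log axis) in each of the 12 samples, coloured by group with the replicate number as symbol. Controls 3 and 4 lie at the far right with the highest Nfkbia and Tnfaip3, and all 8 lesion samples lie at a Fos of 14.6 FPKM or less.

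The second comparison asks how the genes stood in lesions treated with BZLF against lesions treated with saline. All 10 genes had a lower fitted level in IMQ + BZLF, and 7 of the 10 were called lower at an adjusted p below 0.05 in limma, against 5.17% of all genes tested. None was called higher, against 1.28% of all genes tested, and there were 0 higher also at an unadjusted p below 0.05 and by limma-voom on recovered reads. With median ratio scaling, 295 genes of the table were called higher and 579 lower, in place of 195 and 791, and 6 of the 10 lower. The median log2 fold change of the 10 was -0.52, against -0.02 over all genes. In 8 of the 10 genes every IMQ + BZLF sample was under every IMQ + NS sample, against 10.9% of all genes tested in this direction and 4.24% in the other. For each of these 8 the two-sided exact permutation test of 4 against 4 gave p = 0.0286, the smallest it allows. Groups without overlap always give this value, so it adds nothing to the lack of overlap. Only Nfkbiz and Bcl3 passed a rule of more than 2-fold, which 2.2% of all genes tested passed in the lower and 0.321% in the higher direction.

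Nfkbiz was at 3.47, 4.70, 4.59 and 4.82 FPKM in IMQ + BZLF, all far under the lowest IMQ + NS sample, which was at 10.2 FPKM. The log2 fold change was -1.53 ± 0.15 (adjusted p = 0.00134, limma), a level 2.88 times lower, and it ranked 197 from the most negative among 15288 tested genes. Bcl3 was at 5.84, 5.42, 7.57 and 10.7 FPKM in IMQ + BZLF, all under the lowest IMQ + NS sample, with IMQ + BZLF 4 the nearest to it. The log2 fold change was -1.07 ± 0.21 (adjusted p = 0.0183, limma).

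The subunit genes were lower by smaller amounts. Nfkb1 was at 16.9, 19.3, 18.3 and 22.3 FPKM in IMQ + BZLF, under all IMQ + NS samples (-0.50 ± 0.08, adjusted p = 0.0106, limma). Nfkb2 was at 2.82, 2.94, 2.94 and 3.25 FPKM, with the smallest SD of its 3 groups (-0.52 ± 0.12, adjusted p = 0.0323, limma). Rel was at 2.23, 2.34, 2.47 and 2.66 FPKM, between control and IMQ + NS on average (-0.44 ± 0.10, adjusted p = 0.0337, limma). Relb was at 2.11, 2.65, 3.01 and 2.92 FPKM, also without overlap, but its log2 fold change of -0.43 ± 0.13 had an adjusted p of 0.0786 in limma. Rela, which encodes the widely expressed p65 subunit and is not among the 10, was at 22.9 to 24.0 FPKM in IMQ + NS and at 19.0 to 21.2 FPKM in IMQ + BZLF. Its difference was smaller than that of any of the 10, at -0.21 ± 0.05 (adjusted p = 0.0429, limma).

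Of the inhibitors, Nfkbia was at 28.6, 33.4, 35.1 and 33.5 FPKM in IMQ + BZLF, under all IMQ + NS samples and under all control samples (-0.54 ± 0.10 against IMQ + NS, adjusted p = 0.0167, limma). Nfkbie was at 2.56, 3.50, 2.66 and 3.63 FPKM and overlapped the lower IMQ + NS samples (-0.52 ± 0.19, adjusted p = 0.139, limma). Birc3 was at 3.71, 5.71, 4.79 and 4.74 FPKM, with its highest sample just under the lowest IMQ + NS sample (-0.61 ± 0.15, adjusted p = 0.0486, limma). Tnfaip3 was at 3.18, 3.15, 3.95 and 3.24 FPKM, with IMQ + BZLF 3 inside the IMQ + NS range (-0.33 ± 0.12, adjusted p = 0.157, limma). The unadjusted p was below 0.05 for all 10 genes.

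The size of the count depended on single libraries. It was 2 without IMQ + BZLF 2, the library with seminal vesicle transcripts, 3 without IMQ + NS 3 or 4, 4 without IMQ + BZLF 1 or 3, and 4 with no filter on low values. The lower calls of the whole table fell too, from 791 to 440 without IMQ + BZLF 2. They were 426 and 440 without IMQ + NS 3 and 4, and 738 and 527 without IMQ + BZLF 1 and 3. With no filter they were 541. Nfkbiz and Nfkb1 kept their calls in all 20 alternatives, while the call of Birc3 was lost in 14 of them and that of Rel in 9, and no gene changed direction. Without IMQ + BZLF 2, Bcl3 and Birc3 (adjusted p = 0.0553 for both), Nfkbia (0.0501), Nfkb2 (0.0895) and Rel (0.0934) were no longer called in limma. In that order, the log2 fold changes of these genes were then -0.945, -0.71, -0.56, -0.52 and -0.42. In the main fit they were -1.07, -0.61, -0.54, -0.52 and -0.44.

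**Figure D3:**
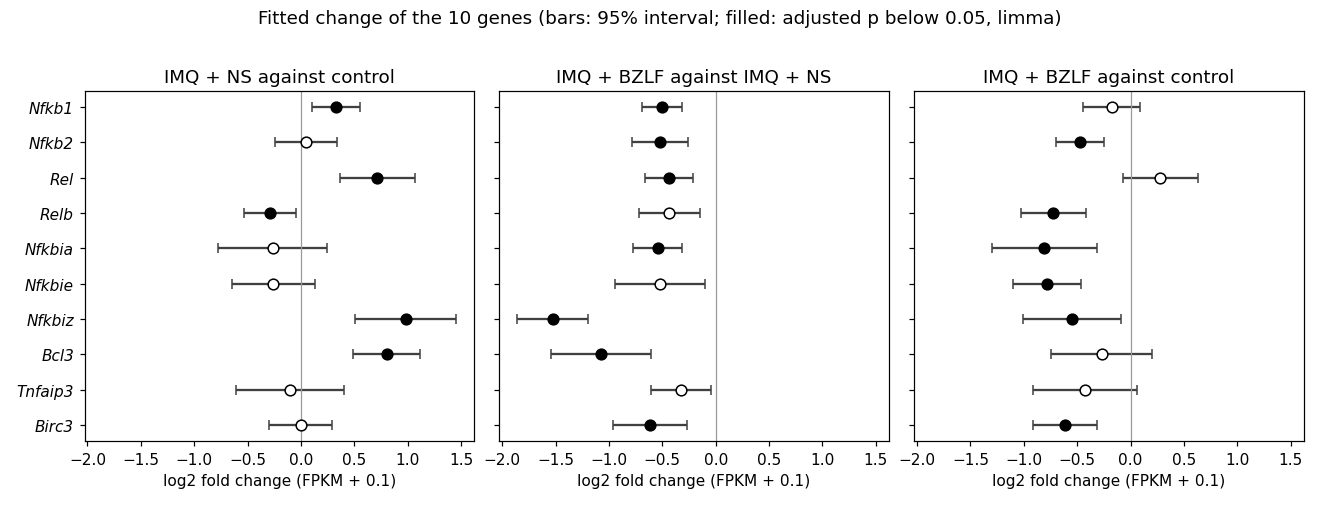
Fitted log2 fold change of FPKM + 0.1 for the 10 genes in 3 comparisons; points are limma estimates from 4 against 4 samples, bars are 95% intervals and filled points have an adjusted p below 0.05. In the middle panel all 10 points lie below 0, with Nfkbiz at -1.53 and Bcl3 at -1.07, and in the left panel 4 filled points lie above 0 and 1 below.

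The third comparison sets IMQ + BZLF skin against control skin; it uses the same control samples as the first and the same treated samples as the second. Of the 10 genes, 6 were called lower in IMQ + BZLF and none higher, against 29.2% and 23.8% of all genes tested (limma), and there were 0 higher also at an unadjusted p below 0.05 and by limma-voom. With library sums made equal, 2771 genes of the table were called higher and 5179 lower, in place of 3640 and 4458. The groups did not overlap in 5 genes, all lower, against 28.1% of all genes tested in this direction and 19.4% in the other. None was called at more than 2-fold, against 10.1% of all genes lower and 9.65% higher. Nfkbia (-0.81 ± 0.22, adjusted p = 0.0131), Nfkbie (-0.78 ± 0.14, adjusted p = 0.00202) and Relb (-0.72 ± 0.13, adjusted p = 0.00228) were lower in limma, as were Birc3 (-0.62 ± 0.13, adjusted p = 0.00481) and Nfkb2 (-0.47 ± 0.10, adjusted p = 0.00430). These 5 calls held in all 22 alternatives, the one without controls 3 and 4 included, but the value of Nfkbia turned on the controls. For Nfkbia it was -0.39 (adjusted p = 0.0337, limma) without controls 3 and 4 and -1.23 (adjusted p = 4.33e-05, limma) without controls 1 and 2. Nfkbiz was called lower by 0.55 ± 0.20 on the log2 scale (adjusted p = 0.0476, limma), but its groups overlapped, and without controls 3 and 4 the log2 fold change was -0.22 with an adjusted p of 0.374. It was lost in 10 of 22 alternatives, among them the omission of control 3 or 4 or of any IMQ + BZLF sample (adjusted p from 0.0654 to 0.124, limma). Of the 4 genes that had risen in IMQ + NS, Bcl3 (-0.27 ± 0.21), Nfkb1 (-0.18 ± 0.12) and Rel (0.28 ± 0.15) were not separated from control, with adjusted p-values of 0.299, 0.234 and 0.157 in limma. Their 95% intervals ran from -0.75 to 0.20, from -0.45 to 0.09 and from -0.07 to 0.63. Without IMQ + BZLF 4, Bcl3 was called lower than control (-0.47, adjusted p = 0.0417, limma). Without control 2, Rel was called higher than control (0.40, adjusted p = 0.0169, limma). Tnfaip3 was at -0.43 ± 0.21 (adjusted p = 0.124, limma), at -0.58 (adjusted p = 0.0217, limma) without control 2, and at -0.04 (adjusted p = 0.861, limma) without controls 3 and 4.

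Ratios of FPKM within a sample describe the balance between the genes, and are given with no test. Their level and the size of their differences depend on the gene model lengths, and the fold between groups does not. Per kilobase of the longest transcript, Rel was at 3.32 and Relb at 6.84 in IMQ + NS. The ratio of Rel to Relb was 0.454 ± 0.115 in control samples, 0.924 ± 0.137 with IMQ + NS and 0.917 ± 0.1 with IMQ + BZLF (mean ± SD, n = 4). Both lesion groups lay above all control samples, whose highest was 0.616, and the lesion groups overlapped. The ratio of Nfkbiz to Nfkbia was 0.113 ± 0.0115, 0.270 ± 0.0316 and 0.134 ± 0.0105. Here IMQ + NS stood apart, from 0.230 upwards, and control and IMQ + BZLF overlapped. The control ratios ran from 0.103 to 0.129, and controls 3 and 4, which were high in both genes, had the lower ones. The ratio of Nfkbiz to Tnfaip3 likewise was 1.42 ± 0.195, 3.02 ± 0.377 and 1.31 ± 0.212.

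Other genes of the pathway were taken in lists by role, which were composed with earlier results of these data known, and their counts are not independent evidence. They held 115 genes beside the 10, of which 110 were tested. In IMQ + NS against control, 45 were called higher and 18 lower in limma, where 29.0% and 27.1% of all genes tested were. In IMQ + BZLF against IMQ + NS, 36 were called lower and none higher (1 of the 110 was higher at an unadjusted p below 0.05, and 0 by limma-voom), against 5.17% of all genes lower and 1.28% higher. In IMQ + BZLF against control, 17 were called higher and 36 lower, against 23.8% and 29.2% of all genes. The plot of pathway genes by role shows that the lists differed in size of change.

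**Figure D4:**
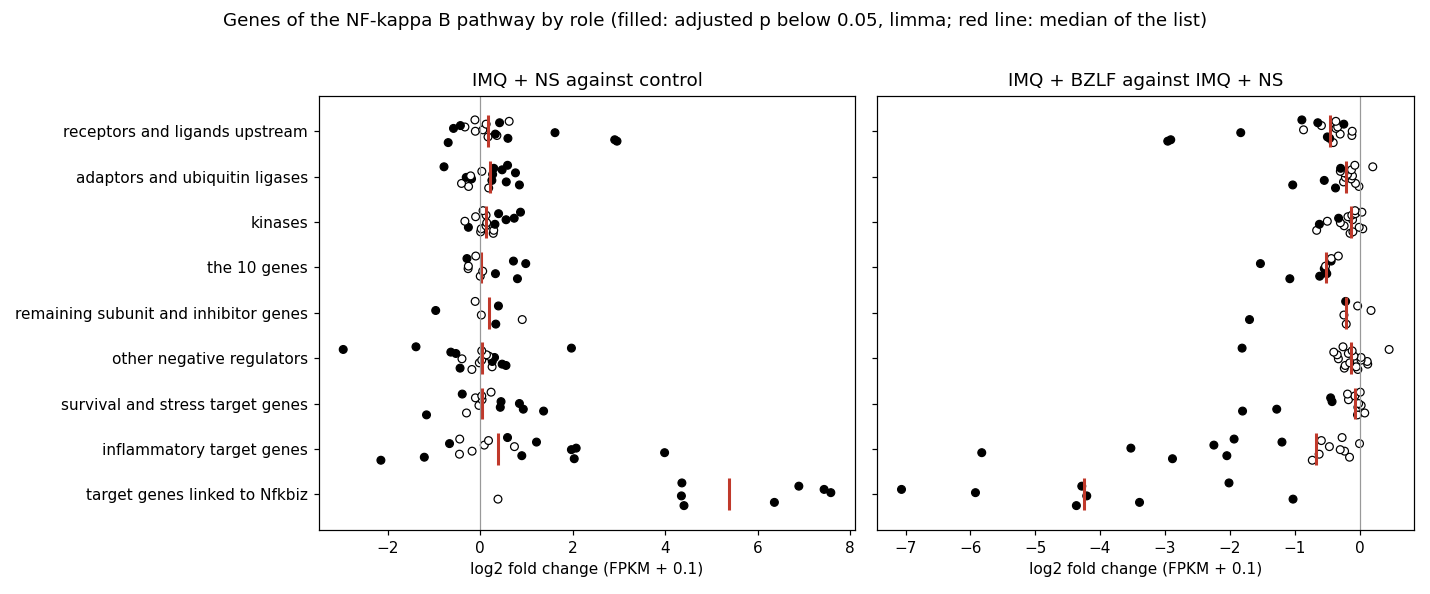
Fitted log2 fold change of FPKM + 0.1 for the tested genes of 9 role lists, in IMQ + NS against control (left) and IMQ + BZLF against IMQ + NS (right); each point is a gene, filled where its adjusted p in limma is below 0.05, and red lines are list medians. The genes linked to Nfkbiz have medians of 5.38 and -4.24, and the medians of kinases and adaptors lie close to 0.

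Of 17 tested upstream receptor and ligand genes, 6 were higher and 3 lower in IMQ + NS against control, and 8 were lower in IMQ + BZLF against IMQ + NS, with a median log2 fold change of -0.46. Il17a, which encodes the cytokine interleukin-17A that drives Nfkbiz in keratinocytes, was listed at 0 in every control and every IMQ + BZLF sample and ranged from 0.402 to 1.08 FPKM in IMQ + NS. Il17f, its close relative, ranged from 0.416 to 1.32 FPKM in IMQ + NS and reached no more than 0.0265 FPKM in the other groups. Ltb, which encodes the lymphotoxin beta chain that signals to the non-canonical branch, rose from 3.93 to 6.01 FPKM in control to 8.29 to 25.5 FPKM in IMQ + NS (1.62 ± 0.31, adjusted p = 0.00229, limma) and fell to 2.07 to 6.16 FPKM in IMQ + BZLF (-1.83 ± 0.39, adjusted p = 0.0282, limma). Cd40, a receptor gene of antigen-presenting cells, was lower in IMQ + NS (-0.70 ± 0.18, adjusted p = 0.00941, limma).

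Adaptors and kinases moved by small amounts. Of 16 adaptor and ubiquitin ligase genes, 8 were higher and 3 lower in IMQ + NS, and 4 were lower in IMQ + BZLF against IMQ + NS. Among these were Myd88, the adaptor of Toll-like and interleukin-1 receptors (-0.54 ± 0.12, adjusted p = 0.0312, limma), Bcl10 (-0.37, adjusted p = 0.0228, limma) and Traf3ip2, the adaptor of the interleukin-17 receptor (-0.29, adjusted p = 0.0198, limma). Of 16 genes in the kinase list, which also holds partner proteins of kinases, 5 were higher and 1 lower in IMQ + NS. Among the higher was Tab3, which encodes a binding partner of the kinase TAK1 (0.87 ± 0.13, adjusted p = 0.000598, limma). The 2 genes of this list called lower after BZLF were Irak3, an inhibitory member of its family (-0.62 ± 0.12, adjusted p = 0.0186, limma), and Map3k8 (-0.32 ± 0.07, adjusted p = 0.0254, limma).

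Among 6 remaining subunit and inhibitor genes, Rela and Nfkbid were the 2 called lower after BZLF. Nfkbid encodes IkappaBNS, a nuclear relative of IkappaB zeta, and like Nfkbiz it was highest in IMQ + NS. It was at 0.274 to 1.04 FPKM in control, 1.01 to 1.89 FPKM in IMQ + NS and 0.124 to 0.544 FPKM in IMQ + BZLF. Its log2 fold change was 0.91 ± 0.35 in lesions (adjusted p = 0.0537, limma) and -1.70 ± 0.34 after BZLF (adjusted p = 0.0214, limma). Of 18 other negative regulators, 5 were higher and 5 lower in IMQ + NS, and 1 was lower after BZLF. That gene was Zc3h12a, which encodes Regnase-1, an enzyme that degrades inflammatory mRNAs. It rose from 4.52 to 7.39 FPKM in control to 18.7 to 26.5 FPKM in IMQ + NS (1.97 ± 0.17, adjusted p = 3.84e-05, limma) and was at 5.94 to 6.77 FPKM in IMQ + BZLF (-1.81 ± 0.10, adjusted p = 8.26e-05, limma). Usp18, an interferon-induced gene, was lower in IMQ + NS than in control (-2.97 ± 0.26, adjusted p = 4.06e-05, limma), and Zfp36 was lower by 1.39 ± 0.30 (adjusted p = 0.00418, limma) against controls that included the high samples 3 and 4.

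Of the target gene lists, the one linked to Nfkbiz had the medians farthest from 0, and the survival and stress targets had medians of 0.04 and -0.07 in the same comparisons. Of 8 tested genes linked to Nfkbiz, 7 were higher in IMQ + NS and all 8 were lower in IMQ + BZLF against IMQ + NS. S100a8 and S100a9, which encode the subunits of the antimicrobial protein calprotectin, were at 1569 to 4874 and 1537 to 4957 FPKM in IMQ + NS. In IMQ + BZLF they were at 42.5 to 48.6 and 14.8 to 29.0 FPKM, log2 fold changes of -5.92 ± 0.28 (adjusted p = 4.37e-05, limma) and -7.06 ± 0.34 (adjusted p = 4.37e-05, limma). Saa3, an acute phase gene, was at 1.94 to 6.97 FPKM in control, 283 to 1018 FPKM in IMQ + NS and 16.6 to 37.5 FPKM in IMQ + BZLF. Defb4, a beta-defensin gene, was listed at 0 in every control sample and was at 4.22 to 16.8 FPKM in IMQ + NS and 0.562 to 0.885 FPKM in IMQ + BZLF. In IMQ + BZLF against control, 4 of the 8 were still higher, Defb4, Saa3, Slpi and S100a8, whereas Nfkbiz itself was not. The 1 called lower was Hp, the haptoglobin gene (-0.64 ± 0.11, adjusted p = 0.00153, limma), which is named after its values were seen. Of 16 tested inflammatory target genes, 7 were higher and 3 lower in IMQ + NS, and 7 were lower after BZLF. Cxcl2, a neutrophil chemokine gene, was at 1.98 to 24.2 FPKM in IMQ + NS and at no more than 0.0234 FPKM in IMQ + BZLF (-5.82 ± 0.63, adjusted p = 0.00177, limma). Il1b, the gene for interleukin-1 beta, was at 11.98 to 55.1 FPKM in IMQ + NS and at 1.44 to 3.01 FPKM in IMQ + BZLF (-3.53 ± 0.43, adjusted p = 0.00348, limma). Ccl2, a monocyte chemokine gene, was lower in IMQ + NS than in control (-2.15 ± 0.27, adjusted p = 0.000246, limma), and Tnf did not pass the test there (-0.45 ± 0.27, adjusted p = 0.187). Of 13 survival and stress target genes, 5 were higher and 2 lower in IMQ + NS and 4 were lower after BZLF, among them Bcl2a1b (-1.80 ± 0.31, adjusted p = 0.0123, limma), whose reads are uncertain because near-identical copies of this gene exist.

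Markers of skin and immune cells moved in the same comparisons. All 10 neutrophil markers were called higher in IMQ + NS and 9 of them lower in IMQ + BZLF (limma), and their summed level was 16.3 to 26.6 FPKM in control, 62.7 to 117 FPKM in IMQ + NS and 15.9 to 25.3 FPKM in IMQ + BZLF. Of 6 keratinocyte markers, 5 were higher in IMQ + NS and 4 lower after BZLF, with sums of 1849 to 2965, 4803 to 7614 and 2168 to 3715 FPKM. Both sums were highest in IMQ + NS, the group in which Nfkbiz, Bcl3, Nfkb1 and Rel were highest. Macrophage markers, in contrast, were lower in IMQ + NS in 7 of 8 genes, with sums of 901 to 1283, 631 to 891 and 416 to 620 FPKM. Relb, Nfkbia, Nfkbie and Tnfaip3 had this order of group means. Endothelial markers had it too, with sums of 82.8 to 113, 68.6 to 82.9 and 53.26 to 81.05 FPKM. For Nfkbia and Tnfaip3 the order of control and IMQ + NS rested on controls 3 and 4. Without these, the log2 fold changes in IMQ + NS were 0.16 and 0.29. The other macrophage marker, Adgre1, was higher (0.70, adjusted p = 0.00165, limma). Dendritic and Langerhans cell markers were lower in IMQ + NS in 5 of 8 genes (41.4 to 72.3, 13.8 to 19.5 and 10.5 to 19.95 FPKM), and 1, Itgax, was higher (0.56, adjusted p = 0.0368, limma). After BZLF, 2 of 8 in each of these lists were lower, Adgre1 and C1qb in the first and Itgax and Ccr7 in the second. These genes are named after their values were seen. Of 8 tested T cell markers, 2 were higher and 2 lower in IMQ + NS and none was called after BZLF, where 3 were lower at an unadjusted p below 0.05 and 0 by limma-voom (17.1 to 22.9, 12.8 to 24.1 and 7.18 to 14.5 FPKM), and of 4 tested B cell markers 2 were higher in IMQ + NS and 1 lower after BZLF. Fibroblast, adipocyte, endothelial and skeletal muscle markers were called lower in IMQ + NS in 5 of 6, 4 of 5, 4 of 6 and 6 of 6 genes, and 0 of them were called after BZLF. At an unadjusted p below 0.05, 3 fibroblast, 2 adipocyte, 1 endothelial and 2 muscle markers were then higher and 2 endothelial markers lower, and limma-voom called 2 fibroblast markers and 1 endothelial marker higher. The 6 pancreas transcripts summed to 0.226 to 219 FPKM over the samples, and each was lowest in sample 4 of every group. Neither they nor the seminal vesicle transcripts passed the test between groups, at an unadjusted p below 0.05 included. The part of cell composition in the levels of the 10 genes, and of the other pathway genes such as S100a8 and S100a9, was not tested.

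Among the 10 genes, likeness was described by Pearson's r of log2(FPKM + 0.1) over the 12 samples, which share group differences, and again with group means taken out. Nfkbia and Tnfaip3 were the most alike, at r = 0.933 over samples and 0.953 with group means taken out. Nfkbia and Nfkbiz were at 0.593 over samples and at 0.890 with group means taken out, and both are high in controls 3 and 4. Nfkb1 and Bcl3 were at 0.922 and 0.720. Over the samples Rel and Relb had the lowest value, -0.213, which was 0.04 with group means taken out, where Nfkb1 and Tnfaip3 had the lowest (-0.582). Among 12656 genes that averaged 1 FPKM or more, the gene most like Nfkb1 over the samples was Stat3 (0.966), a transcription factor of cytokine signalling that was also near Bcl3 (0.933). The nearest to Nfkbiz was Pglyrp4 (0.952), which encodes a peptidoglycan recognition protein, the nearest to Birc3 were Gch1 (0.981) and Tlr2 (0.980), and the nearest to Relb was Cyba (0.979), a subunit gene of the phagocyte oxidase. Tnfaip3 and Nfkbia both had Elovl1, a fatty acid elongase gene, as the nearest (0.981 and 0.948). With group means taken out, the nearest to Bcl3 was the keratin gene Krt16 (0.934) and the nearest to Nfkbie was Il1b (0.894). These values are descriptions over 12 samples and carry no test.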

How the data were processed

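RNA-seq was available for 12 back skin samples, 4 in each of 3 groups that were taken from the sample labels. The authors deposited FPKM values, 1 per gene and sample, for 18505 genes. The study's methods name Bowtie2 and eXpress, whereas the submitters' processing notes name fastp, HISAT2, HTSeq, R 3.2.0 and mm10, and the versions of the others are not given in the sources used here. The deposited FPKM values were solved for whole reads: 17608 of 17610 genes above 0 in at least 3 samples (99.99%) came out whole within 0.02 reads in every sample, which also gave the library totals and the gene model lengths. The main test stayed on FPKM.

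Genes that averaged 0.1 FPKM or more were tested as log2(FPKM + 0.1) with limma 3.58.1 in R 4.3.3. Each fit held the 8 samples of the groups compared, with a variance trend, and p-values were adjusted by Benjamini-Hochberg over 15288 genes. The constant understates the change of low genes. Single values were also tested by the two-sided exact permutation test. Python 3.11.15, pandas 2.3.3 and matplotlib 3.10.9 were used for the rest. The scripts were tested on simulated data. Alternatives were the constant, the filter, the scaling, the variance model, all 12 samples in one fit, a replicate block, omission of each sample, limma-voom on the recovered reads, and the controls in pairs, the last 2 chosen after seeing the data.

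All 10 genes are named. From each other pathway list, up to 4 called genes with the greatest change per comparison could be named, plus Rela, and the 3 genes most alike to each of the 10. Marker lists are described by counts. The values of 1 adaptor gene are not reported here. The members and lists were chosen with earlier results of these data known. Promoter sequences are from RefSeq (GRCm38.p6) and gene positions from GENCODE M21. The deposited table has no coordinates. Sample numbers are shared between groups but were not taken as pairs.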

Additional observations from a re-analysis of the deposited data

Results flagged for a closer look

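In 30 sets of 4 samples (10 genes in 3 groups), the gap of the highest or lowest sample was compared with the range of its set. In 1 set it was over Dixon's 95% critical value: Tnfaip3 in IMQ + BZLF 3 was at 3.95 FPKM (3.946), while the other three samples lay between 3.15 and 3.24 FPKM. Chance flags about 1 in 20 such sets. The IMQ + BZLF 3 sample is also the only one that lay within the IMQ + NS range for Tnfaip3.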

How the results depend on the processing

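Adjusted p-values here are from limma. In IMQ + NS against control, the count of 4 higher genes was 3 to 4 when each sample was left out and 0 under both rules that also ask for more than 2-fold. The count of 1 lower gene was 0 with median ratio scaling, with all 12 samples in one fit, with the replicate block, without controls 3 and 4 and under both 2-fold rules, was 0 to 1 when each sample was left out, and was 3 without controls 1 and 2. In IMQ + BZLF against IMQ + NS, the count of 7 lower genes was 4 with no filter on low values, 2 to 6 when each sample was left out and 2 under both 2-fold rules. In IMQ + BZLF against control, the count of 6 lower genes was 5 to 7 when each sample was left out and 0 under both 2-fold rules, and the count of 0 higher genes was 0 to 1, with Rel called without control 2. The omissions leave fewer samples, the missing filter adds genes and the 2-fold rules are stricter. The cause of these changes was not tested.

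Every change of direction was in IMQ + NS against control and in genes that were not called. The log2 fold change of Nfkb2 was -0.0796 with equal sums, -0.0799 with quantile normalization and -0.0193 without controls 3 and 4, and ranged from -0.0421 (without IMQ + NS 3) to 0.1188 when each sample was left out. That of Nfkbia was 0.16 without controls 3 and 4. That of Tnfaip3 was 0.02 without control 3, 0.0421 without control 4 and 0.29 without both, and ranged from -0.2548 to 0.0421 when each sample was left out. That of Birc3 ranged from -0.1091 to 0.0946 when each sample was left out, with 0.03 without control 3, 0.0013 without control 4, 0.0946 without IMQ + NS 1 and 0.0067 without IMQ + NS 4, and was 0.0473 without controls 3 and 4. Equal sums and quantile normalization moved the median of all genes in this comparison from 0.05 to -0.07, and equal sums that in IMQ + BZLF against control from -0.0182 to -0.115. Of the values for single genes, 163 of 200 kept direction and side of the threshold in IMQ + BZLF against IMQ + NS, 206 of 220 in IMQ + BZLF against control and 189 of 220 in IMQ + NS against control.

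Samples with the same number did not deviate together in all pairs of groups (correlations of deviations from -0.15 to 0.26), so the numbers were not used as pairs. Some transcripts did follow the number. The pancreas transcript Cpa1 was at 12.33, 15.18, 12.24 and 0.9777 FPKM in controls 1 to 4. It was at 12.22, 15.24, 12.98 and 1.143 FPKM in IMQ + BZLF, but at 2.784, 2.992, 12.25 and 0.03153 FPKM in IMQ + NS. Seminal vesicle transcripts were high in control 2 and IMQ + BZLF 2 but not in IMQ + NS 2. Whether samples with the same number were handled together was not tested. With the replicate block, 7 genes were lower in IMQ + BZLF against IMQ + NS, but Rel was lost (adjusted p = 0.0856) and Relb was gained (0.0481). In IMQ + NS against control Relb was lost (0.0715). limma-voom on the recovered reads called the same count of 7. Depth limited little, since each gene had at least 242 reads per sample.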
